A study of Homo sapiens with 4 samples.

Results

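The genes described here are 4 receptors of the ERBB family (EGFR, ERBB2, ERBB3 and ERBB4), 5 of their EGF-like ligands (AREG, EREG, HBEGF, TGFA and NRG1) and the feedback inhibitor ERRFI1. They were found by symbol, 10 of the 57963 genes listed, and each symbol matched 1 gene. The human cell line PC3 was derived from a bone metastasis of prostate cancer, and all libraries come from this line. The cells carried a lentiviral SORE6 reporter, in which repeats of a SOX2 and OCT4 response element of the NANOG promoter drive a destabilized GFP. After puromycin selection (5 µg/mL in the labels, while the methods give a lower concentration), cells at passages 18 to 22 were sorted into a GFP-positive gate (SORE6+, labelled cancer stem cells) and a GFP-negative gate (SORE6-, labelled non cancer stem cells). RNA of 2 SORE6+ and 2 SORE6- libraries was sequenced, and each gate has a replicate 1 and a replicate 2. The methods speak of 2 separate pairs of sorted cells, but whether a pair shares its replicate number is not stated. Nothing says that the replicates are separate cultures, so p-values measure the spread between these libraries, which may be technical.

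The values are relative transcript abundances per gene in TPM (transcripts per 1000000), which correct for transcript length and let genes be compared within a library. TPM keeps no read depth, so the counting error is unknown (the methods state 30 M reads per sample). Genes above 0 TPM numbered 30709 and 29778 in SORE6+ cells, against 31501 and 30535 in SORE6- cells. The epithelial keratins KRT8 and KRT18 were at 777 to 1162 TPM and KLK3 was listed at 0 in all 4 libraries. Of the reporter's factors, SOX2 was listed at 0.0803 and 0 TPM in SORE6+ cells, against 0.0207 and 0.0196 TPM in SORE6- cells. POU5F1, which encodes OCT4, was at 3.09 and 2.61 TPM in SORE6+ cells, against 2.82 and 2.14 TPM in SORE6- cells. Markers of other cell types were low apart from COL1A1 (12.4 to 36.6 TPM), PECAM1 (up to 16.9 TPM) and CD68, which was at 47.9 and 53.8 TPM in SORE6+ cells, against 30.7 and 27.5 TPM in SORE6- cells. Of the 6 fibroblast, 5 immune and 4 endothelial markers, 3, 4 and 3 stayed under 1 TPM in every library. The summed level of the fibroblast markers was 15.5 to 31.7 TPM in SORE6+ cells, against 14.9 to 41.2 TPM in SORE6- cells, that of the immune markers 49.0 to 54.1 TPM, against 27.9 to 31.7 TPM, and that of the endothelial markers 13.2 to 14.6 TPM, against 14.7 to 17.1 TPM. Their part in the values below was not tested.

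ERBB receptors are tyrosine kinases of the cell surface that act as dimers. EGF-like ligands are made as membrane-bound precursors, and ADAM proteases release many of them to act on the same or on neighbouring cells. ERBB2 has no known direct ligand and ERBB3 has little kinase activity of its own, so each signals mainly with a partner, and ERRFI1 (also called MIG6) is induced by EGFR signaling and binds and inhibits the receptor kinases. In prostate epithelium, EGFR and its ligands are known as growth and survival signals.

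Differences between the gates were tested with limma on log2(TPM + 1) over the 17642 genes that reached 1 TPM in at least 2 libraries. To pass, a gene had to change by 1.5-fold or more with an adjusted p below 0.1. ERBB4 and NRG1 did not reach the filter, so 8 of the 10 genes were tested, and ERBB4 and NRG1 are given by their values alone. Of these 8, 0 passed as higher and 0 as lower in SORE6+ cells, as for 0% of all genes tested in each direction. Each of the 8 had a limma adjusted p = 1.00, while none (0) was below an unadjusted p of 0.05, against 673 of all genes tested. An exact permutation test of 1 gene in 2 against 2 libraries cannot give a two-sided p below 0.333. The libraries are therefore also set side by side within each replicate number.

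The mRNAs of EGFR, ERBB2 and ERBB3 were abundant and that of ERBB4 was nearly absent. EGFR, the receptor of EGF and amphiregulin (ENSG00000146648, chromosome 7 of GRCh38, 55019021 to 55211628), was at 54.2 and 41.5 TPM in SORE6+ cells, against 62.8 and 56.7 TPM in SORE6- cells (replicates 1 and 2 in that order, here and below). The gates did not overlap, EGFR being lower in both SORE6+ libraries, a pattern shared by 20.2% of all genes tested. The SORE6+ value was 0.864 of the SORE6- value in replicate 1 and 0.731 in replicate 2. The log2 fold change of EGFR was −0.32 (standard error 0.17, 95% interval −0.79 to 0.14, limma adjusted p = 1.00), so in this fit, which has no term for the replicate number, the interval included 0. In bulk RNA, fewer cells that express a gene and less of its RNA per cell cannot be told apart.
ERBB2 (ENSG00000141736, chromosome 17, 39687914 to 39730426), the preferred partner of the other receptors, was at 43.2 and 39.6 TPM in SORE6+ cells, against 42.7 and 41.9 TPM in SORE6- cells. ERBB3 (ENSG00000065361, chromosome 12, 56076799 to 56103505), the neuregulin receptor that recruits PI3K, was at 39.9 and 46.9 TPM in SORE6+ cells, against 39.8 and 49.8 TPM in SORE6- cells. For both genes the gates overlapped, with log2 fold changes of −0.03 for ERBB2 (95% interval −0.34 to 0.27) and −0.04 for ERBB3 (95% interval −0.50 to 0.42), signs that turned with relative log expression or upper-quartile factors. ERBB2 overlaps MIEN1 on the other strand, which was at 43.4 to 46.6 TPM, and ERBB3 overlaps AC034102.2 on its own strand, at 15.1 to 51.7 TPM. Of their 31-base transcript sequences, 2.43% in ERBB2 and 2.46% in ERBB3 also occur in other genes, and it is not stated whether the libraries keep the strand.
ERBB4 (ENSG00000178568, chromosome 2, 211375717 to 212538841), a second neuregulin receptor, was at 0.239 and 0.161 TPM in SORE6+ cells, against 0.391 and 0.569 TPM in SORE6- cells. Its gates did not overlap, but all 4 values were under 1 TPM.

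The ratio between 2 genes of a library does not depend on how libraries are scaled. EGFR stood at 1.26 and 1.05 times ERBB2 in SORE6+ cells, against 1.47 and 1.35 times in SORE6- cells. Against ERBB3, EGFR stood at 1.36 and 0.884 times in SORE6+ cells, against 1.58 and 1.14 times in SORE6- cells. Within each replicate number the SORE6+ library had less EGFR per ERBB2 and per ERBB3. The ratio of ERBB3 to ERBB2 was almost the same in the gates, 0.925 and 1.18 in SORE6+ cells, against 0.932 and 1.19 in SORE6- cells, and differed more between the replicate numbers. In order of mean level over the 4 libraries, EGFR (53.8 TPM) came before ERBB3 (44.1 TPM) and ERBB2 (41.9 TPM), and the ranges of all 3 genes over the libraries overlapped.

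**Figure D1:**
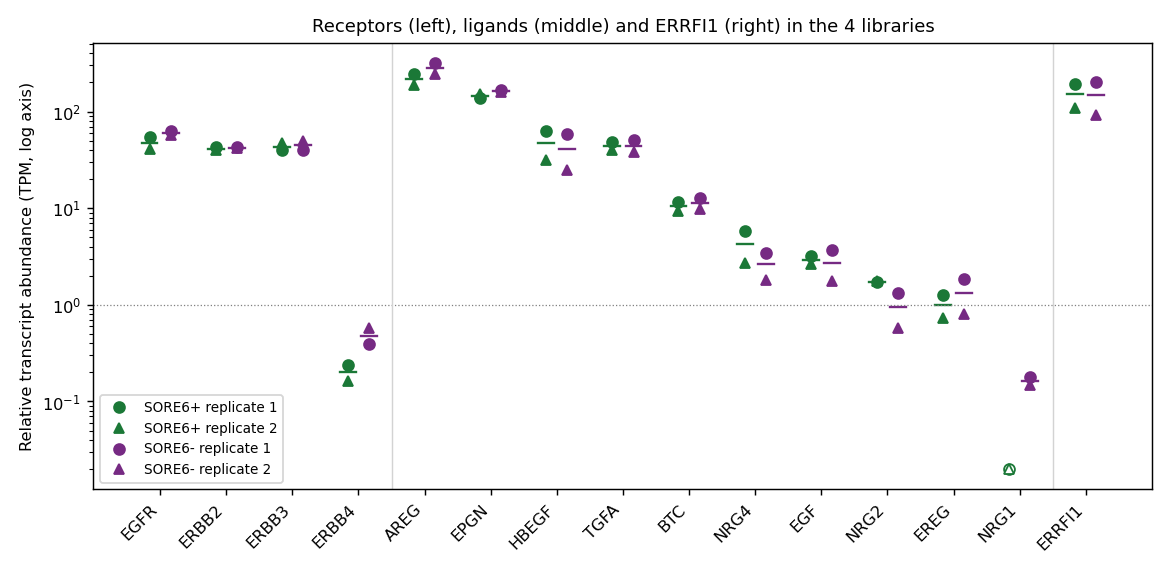
Relative transcript abundance (TPM, log axis) of the receptors (left), the ligands except NRG3 (middle) and ERRFI1 (right) in the 4 libraries. Points are libraries, bars are gate means, open points at the foot are values listed at 0, which a log axis cannot place, and the dotted line is 1 TPM. AREG is the highest ligand at 187 to 318 TPM, and ERBB4 and NRG1 lie below 1 TPM in every library.

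Which ligands PC3 cells could pair with a receptor of their own was read from 16 known direct pairs of a ligand and EGFR, ERBB3 or ERBB4. In 6 of the 16 pairs, both mRNAs were at 1 TPM or more in all 4 libraries, and all 6 join EGFR to a ligand, namely AREG, EPGN, HBEGF, TGFA, BTC and EGF. With a minimum of 10 TPM, 4 pairs were left, those of EGFR with AREG, EPGN, HBEGF and TGFA. With a minimum of 0.5 TPM the pairs EGFR with EREG and ERBB3 with NRG2 were added, 8 in all. ERBB4 formed no pair at any of these minimums. The counts describe mRNA in a mixed culture sorted into gates, and say nothing of protein, shedding or binding.
ERBB3 was well expressed, but its best-known ligand was not. NRG1, which encodes neuregulin 1 (ENSG00000157168, chromosome 8, 31639386 to 32767959), was listed at 0 in both SORE6+ libraries, against 0.181 and 0.146 TPM in SORE6- cells. The other ERBB3 ligand, NRG2, was at 1.73 and 1.74 TPM in SORE6+ cells, against 1.32 and 0.579 TPM in SORE6- cells. Both SORE6+ values of NRG2 lay above both SORE6- values, as in 10.9% of all genes tested. The fitted difference was 0.52 on the log2 scale (limma, standard error 0.28, adjusted p = 1.00). NRG4, a ligand of ERBB4, was at 5.81 and 2.72 TPM in SORE6+ cells, against 3.44 and 1.82 TPM in SORE6- cells, and the gates overlapped. NRG3, also a ligand of ERBB4, was listed at 0 in 3 libraries and at 0.0320 TPM in SORE6- replicate 2.

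AREG made up the largest part of the ligand mRNA. AREG encodes amphiregulin, an EGFR ligand that ADAM17 releases (ENSG00000109321, chromosome 4, 74445134 to 74455009). It was at 247 and 187 TPM in SORE6+ cells, against 318 and 247 TPM in SORE6- cells. The SORE6+ library was the lower one in both replicate numbers, at 0.777 and 0.758 of the SORE6- value, but SORE6+ replicate 1 and SORE6- replicate 2 were level. The log2 fold change of AREG was −0.38 (standard error 0.21, 95% interval −0.95 to 0.19, limma adjusted p = 1.00). Within the replicate numbers the 2 differences were −0.36 and −0.40, a mean of −0.38 ± 0.03 (SD, n = 2), the closest agreement among the 8 tested genes.
The ratio of AREG to EGFR was 4.56 and 4.51 in SORE6+ cells, against 5.07 and 4.35 in SORE6- cells. Of the summed TPM of 11 ligand genes, AREG held 47.3% and 43.5% in SORE6+ cells, against 51.6% and 50.9% in SORE6- cells. The sum itself was 523 and 429 TPM in SORE6+ cells, against 617 and 484 TPM in SORE6- cells, lower in the SORE6+ library of both replicate numbers. The 3 protein-coding genes of at least 5 TPM whose pattern over the 4 libraries lay closest to AREG were PAXBP1, TNFSF15 and C16orf62, with Euclidean distances of 0.0152, 0.0255 and 0.0349 between mean-centred log2(TPM + 1) values among 10365 genes. With 4 libraries such a likeness is a description alone.

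EPGN encodes epigen, a further EGFR ligand, which is not among the 10 genes and was named because it completes the pairs. It was the second ligand by level, at 139 and 153 TPM in SORE6+ cells, against 166 and 160 TPM in SORE6- cells. Its gates did not overlap in unscaled TPM, with SORE6+ the lower, as in 20.2% of all genes tested. After division by relative log expression or upper-quartile factors, the gates of EPGN overlapped. The fitted difference was −0.16 on the log2 scale (limma, standard error 0.10, adjusted p = 1.00). EREG, which encodes epiregulin, a ligand of EGFR and ERBB4 (ENSG00000124882, chromosome 4, 74365143 to 74388751), was far below its neighbour AREG. EREG was at 1.27 and 0.729 TPM in SORE6+ cells, against 1.86 and 0.810 TPM in SORE6- cells, and the gates overlapped. AREG stood at 194 and 256 times EREG in SORE6+ cells, against 171 and 304 times in SORE6- cells, and the genes lie 56382 bases apart on the same strand.
EPGN, EREG, AREG and BTC are the protein-coding genes of a stretch of 486 kb on chromosome 4 (74308473 to 74794686), which holds 6 annotated genes, 5 of them tested. BTC, which encodes betacellulin, was at 11.7 and 9.37 TPM in SORE6+ cells, against 12.7 and 9.91 TPM in SORE6- cells. The 4 ligand genes of this stretch were lower in the SORE6+ library of both replicate numbers, as were 42.3% of all genes tested. Their differences on the log2(TPM + 1) scale in replicates 1 and 2 were −0.36 and −0.40 for AREG, −0.33 and −0.07 for EREG, −0.25 and −0.06 for EPGN and −0.12 and −0.07 for BTC. The fifth tested gene, the antisense transcript AC239584.1 between AREG and BTC, differed by −0.04 and 0.25. With relative log expression factors the ligand genes stayed below 0, but EPGN was level in replicate 2 (−0.19 and −0.000945). BTC was at −0.06 and −0.02. With these factors 32.2% of all genes tested were lower and 32.4% higher in both replicate numbers, and with upper-quartile factors 34.7% and 29.6%. The stretch was singled out after the values had been seen and was not tested.

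The promoters of AREG and EREG are shown because these neighbours had very different levels, and those of HBEGF and ERRFI1 because both differed between the replicate numbers. Each is the 250 bases before the RefSeq start of the gene, 5′ to 3′ on the gene's strand, from GRCh38.p14, and 8 of the 10 genes had an entry. Capitals mark matches on either strand to TGACGTCA (the cyclic AMP response element), TGANTCA (AP-1), GGGCGG (GC box) and TATAAA. The regions are chr4:74444886-74445135 (AREG, plus strand), chr4:74364895-74365144 (EREG, plus strand), chr5:140346604-140346853 (HBEGF, minus strand) and chr1:8026310-8026559 (ERRFI1, minus strand).
AREG: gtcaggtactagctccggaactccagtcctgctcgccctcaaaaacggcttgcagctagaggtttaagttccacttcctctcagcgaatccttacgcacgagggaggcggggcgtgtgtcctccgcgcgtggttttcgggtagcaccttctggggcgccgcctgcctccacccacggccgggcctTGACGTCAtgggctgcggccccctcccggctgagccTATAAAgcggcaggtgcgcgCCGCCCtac
EREG: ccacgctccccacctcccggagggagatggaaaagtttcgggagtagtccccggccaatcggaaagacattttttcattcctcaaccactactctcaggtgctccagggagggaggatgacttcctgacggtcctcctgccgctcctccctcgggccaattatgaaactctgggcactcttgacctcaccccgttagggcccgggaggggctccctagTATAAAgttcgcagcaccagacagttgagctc
HBEGF: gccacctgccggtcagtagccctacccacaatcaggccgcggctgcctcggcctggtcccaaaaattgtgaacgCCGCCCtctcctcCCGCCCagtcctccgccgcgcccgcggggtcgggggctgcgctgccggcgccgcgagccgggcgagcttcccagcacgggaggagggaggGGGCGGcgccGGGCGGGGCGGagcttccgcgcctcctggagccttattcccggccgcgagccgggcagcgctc
ERRFI1: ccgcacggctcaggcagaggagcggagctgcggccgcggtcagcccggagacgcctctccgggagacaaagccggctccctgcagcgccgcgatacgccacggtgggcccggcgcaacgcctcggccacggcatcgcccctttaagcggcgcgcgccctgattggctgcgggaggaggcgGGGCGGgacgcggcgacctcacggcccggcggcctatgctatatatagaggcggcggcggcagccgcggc
AREG held 1 match to TGACGTCA, 65 bases before the start, and this sequence occurs in 1.65% of all 35116 promoter windows of the same length. AREG and EREG each held TATAAA, 29 and 32 bases before the start, which 10.7% of windows hold. HBEGF held 5 matches to GGGCGG, of which 2 overlap each other, and ERRFI1 and AREG held 1 each. GGGCGG occurs in 42.6% of windows. None of these 4 windows held TGANTCA, which occurs in 6.57% of windows. A match describes letters and is not a shown binding site.

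TGFA was level between the gates. It encodes transforming growth factor alpha (ENSG00000163235, chromosome 2, 70447280 to 70554193) and was at 48.8 and 40.0 TPM in SORE6+ cells, against 50.8 and 37.7 TPM in SORE6- cells. Its log2 fold change was 0.01 (standard error 0.20, 95% interval −0.54 to 0.56), with a ratio of 0.959 in replicate 1 and 1.06 in replicate 2. AREG stood at 5.07 and 4.67 times TGFA in SORE6+ cells, against 6.26 and 6.54 times in SORE6- cells. In this ratio both SORE6+ libraries lay below both SORE6- libraries, although the gates overlapped for AREG alone and for TGFA alone. How often the ratios of other genes separate the gates was not counted.
HBEGF was the one ligand among the 5 that was higher in the SORE6+ library of both replicate numbers, as were 23.2% of all genes tested. It encodes heparin-binding EGF-like growth factor, a ligand of EGFR and ERBB4 (ENSG00000113070, chromosome 5, 140332843 to 140346631). HBEGF was at 63.4 and 31.7 TPM in SORE6+ cells, against 58.1 and 24.7 TPM in SORE6- cells. The gates overlapped widely, since each gate's replicate 1 was above both replicate 2 libraries. The ratio of SORE6+ to SORE6- was 1.09 in replicate 1 and 1.28 in replicate 2, and the log2 fold change was 0.23 (standard error 0.54, 95% interval −1.25 to 1.72, limma adjusted p = 1.00). This fit has no term for the replicate number, so its standard error takes in the difference between the replicate numbers. With such a term, over all genes, the standard error of HBEGF was 0.0811 (limma adjusted p = 0.305). HBEGF held 12.1% and 7.38% of the ligand TPM in SORE6+ cells, against 9.43% and 5.10% in SORE6- cells. Among the 8 tested genes, TGFA joined HBEGF as higher in both replicate numbers with relative log expression factors. With these factors 32.4% of all genes tested were higher in both. Of the 8 tested genes, 0 had a SORE6+ range wholly above the SORE6- range, a pattern found in 10.9% of all genes tested.

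**Figure D2:**
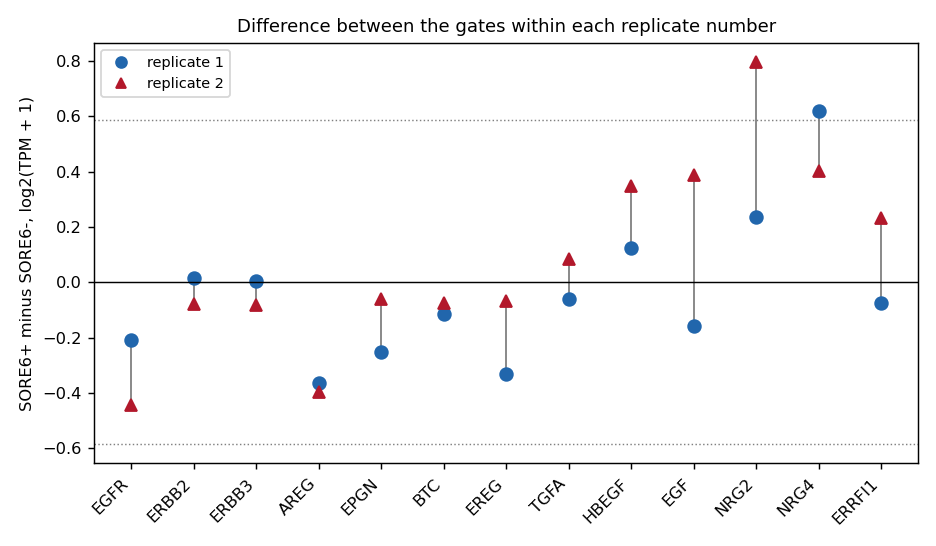
Difference between the gates (SORE6+ minus SORE6-, on the log2(TPM + 1) scale) within replicate 1 and within replicate 2 for 13 receptors, ligands and ERRFI1. Dotted lines mark 1.5-fold. AREG lies at −0.36 and −0.40, EGFR at −0.21 and −0.44, and HBEGF above 0 in both.

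**Figure D3:**
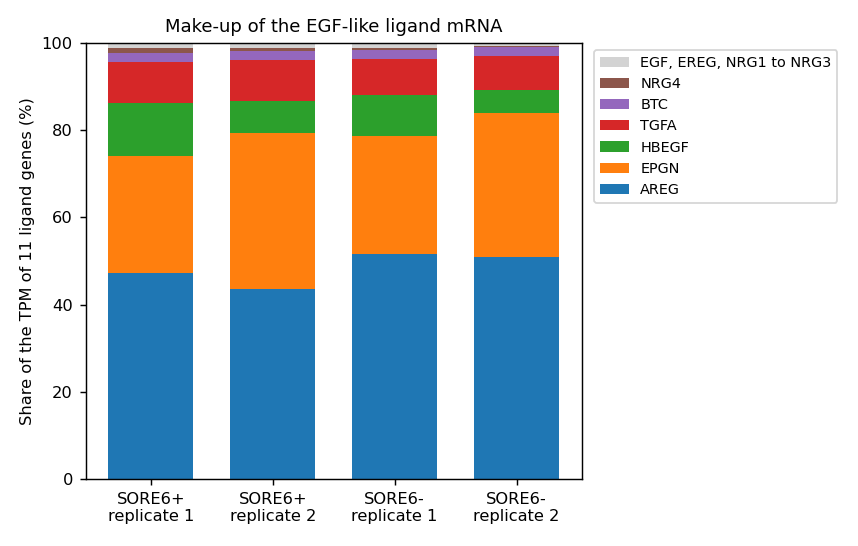
Share (%) of each gene in the summed TPM of 11 EGF-like ligand genes, 1 bar per library. AREG holds 47.3% and 43.5% in SORE6+ cells, against 51.6% and 50.9% in SORE6- cells, and EPGN is the next largest part in every library.

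ERRFI1 was abundant and followed the replicate number rather than the gate. It encodes the inhibitor MIG6 (ENSG00000116285, chromosome 1, 8004404 to 8026308) and was at 192 and 109 TPM in SORE6+ cells, against 202 and 92.5 TPM in SORE6- cells. Within the replicate numbers the sign turned, with a ratio of 0.948 in replicate 1 and 1.18 in replicate 2, and the log2 fold change was 0.08 (standard error 0.48, 95% interval −1.24 to 1.40). With a term for the replicate number, over all genes, the standard error of ERRFI1 was 0.0939 (limma adjusted p = 0.693). ERRFI1 per EGFR was 3.53 and 2.63 in SORE6+ cells, against 3.22 and 1.63 in SORE6- cells, higher in the SORE6+ library of both replicate numbers.
HBEGF and ERRFI1 were the 2 tested genes of the 10 in which replicate 1 was at least 1.5-fold above replicate 2 in both gates on the log2(TPM + 1) scale, as in 6.22% of all genes tested. In plain TPM the ratio of replicate 1 to replicate 2 for HBEGF was 2.0 in SORE6+ cells and 2.35 in SORE6- cells. For ERRFI1 the ratios were 1.76 in SORE6+ cells and 2.18 in SORE6- cells. EREG had TPM ratios of 1.75 in SORE6+ cells and 2.30 in SORE6- cells, but at its low level the differences on the log2(TPM + 1) scale were 0.39 and 0.66, and the first lay under 1.5-fold. The ratio of ERRFI1 to HBEGF stayed within 3.02 to 3.75 over the 4 libraries. Among 14 early response and feedback genes that receptor signaling induces, 8 had such a difference between the replicate numbers, among them DUSP1, a MAP kinase phosphatase, at 3.36 times in SORE6+ cells and 3.42 times in SORE6- cells, and MYC at 2.56 and 2.20 times. EGFR (1.31 and 1.11 times), ERBB2 (1.09 and 1.02 times) and ERBB3 (0.851 and 0.800 times) differed less by replicate number. AREG was 1.32 and 1.29 times as high in replicate 1. On the log2(TPM + 1) scale its replicate numbers were 0.40 and 0.37 apart, about as far as its gates (−0.36 and −0.40). COL1A1 from the fibroblast markers also differed, at 2.16 times in SORE6+ cells and 2.95 times in SORE6- cells. What sets the replicate numbers apart is not stated, and its part in these values was not tested.

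**Figure D4:**
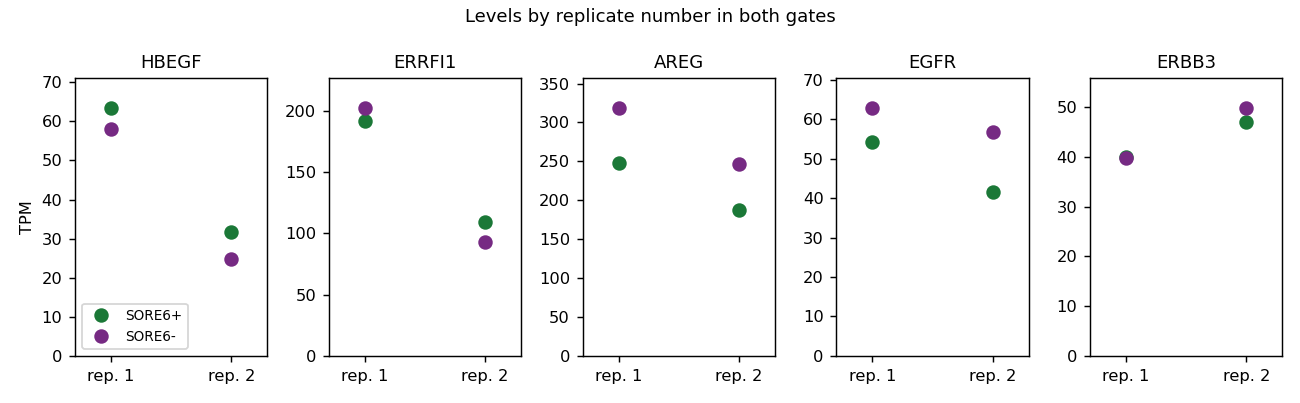
TPM of HBEGF, ERRFI1, AREG, EGFR and ERBB3 by replicate number, 1 point per library, with axes that start at 0. In HBEGF and ERRFI1 the replicate numbers are further apart than the gates, and in AREG and EGFR the SORE6+ point is below the SORE6- point in both replicate numbers. In AREG the replicate numbers are about as far apart as the gates.

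The rest of the pathway was read from lists of genes that act before and after the receptors. Of all 17642 genes tested, 6840 had a higher and 10802 a lower mean on the log2 scale in SORE6+ cells, against which the counts below are to be read. Gates that did not overlap are likewise to be read against all genes tested. Of these, 10.9% had both SORE6+ values above and 20.2% had both below the SORE6- values. In each list 0 genes passed in limma in either direction. Of 9 sheddases and partners, which release the ligands, 9 were tested, 5 had a higher and 4 a lower mean on the log2 scale in SORE6+ cells, with a median of 0.12 on the log2 scale, where all genes tested had −0.05. ADAM15, a membrane metalloprotease and the most abundant of this list, was at 254 and 236 TPM in SORE6+ cells, against 207 and 199 TPM in SORE6- cells. Its gates did not overlap, and its log2 fold change was 0.27 (standard error 0.10, unadjusted p = 0.0498 in limma, adjusted p = 1.00). FRMD8, which stabilizes the iRhom and ADAM17 complex, was at 25.3 and 24.3 TPM in SORE6+ cells, against 19.9 and 20.8 TPM in SORE6- cells, again without overlap. ADAM10, which releases betacellulin and EGF, was at 50.2 and 35.8 TPM in SORE6+ cells, against 58.0 and 43.3 TPM in SORE6- cells, and the gates overlapped. ADAM17 itself was at 21.1 and 17.9 TPM in SORE6+ cells, against 22.9 and 19.7 TPM in SORE6- cells. ADAM9 was at 60.2 and 44.1 TPM, against 69.2 and 49.3 TPM. The gates of ADAM17 and ADAM9 overlapped, with the SORE6+ library lower in both replicate numbers. Of the 9 genes, 4 were higher and 3 lower in both replicate numbers, against 23.2% and 42.3% of all genes tested.
Of 13 receptor inhibitors and ubiquitin ligases, ERRFI1 included, 7 had a higher and 6 a lower mean, and the list median was 0.02 on the log2 scale. SOCS5, which promotes EGFR degradation, was at 8.70 and 7.59 TPM in SORE6+ cells, against 11.2 and 9.53 TPM in SORE6- cells, and the gates did not overlap. RNF41, a ubiquitin ligase of ERBB3, was at 34.5 and 41.5 TPM in SORE6+ cells, against 37.8 and 38.1 TPM in SORE6- cells.
Of 15 adaptors and effectors 12 were tested, of which 8 had a higher and 4 a lower mean (median log2 fold change 0.02). GRB2, the adaptor that links the receptors to SOS and RAS, was at 136 and 131 TPM in SORE6+ cells, against 119 and 118 TPM in SORE6- cells. SHC1, a second adaptor, was at 103 and 96.3 TPM in SORE6+ cells, against 90.2 and 80.0 TPM in SORE6- cells. In both adaptors the SORE6+ libraries lay above the SORE6- libraries, with log2 fold changes of 0.17 for GRB2 and 0.23 for SHC1 (limma adjusted p = 1.00 for each). PTPN11, the largest lower difference of this list, was at 74.4 and 63.1 TPM in SORE6+ cells, against 85.7 and 70.5 TPM in SORE6- cells. Its gates overlapped, with the SORE6+ library lower in both replicate numbers. Of the 12 tested, 7 were higher and 4 lower in both replicate numbers, against 23.2% and 42.3% of all genes tested.
Of 13 partners and trafficking genes 11 were tested, with 6 higher and 5 lower (median log2 fold change 0.01). FAM83A, an adaptor of EGFR signaling, had the largest difference of this list and was at 14.0 and 11.6 TPM in SORE6+ cells, against 5.69 and 7.97 TPM in SORE6- cells (log2 fold change 0.83, standard error 0.22, unadjusted p = 0.0179 and adjusted p = 1.00 in limma). CD44, which can hold HBEGF at the surface, was at 443 and 501 TPM in SORE6+ cells, against 442 and 498 TPM in SORE6- cells, close between the gates within each replicate number. Of the 14 early response genes 6 had a higher and 8 a lower mean (median log2 fold change −0.05). EGR1, an early transcription factor, was at 22.3 and 9.72 TPM in SORE6+ cells, against 36.0 and 27.7 TPM in SORE6- cells, without overlap (limma log2 fold change −1.04 with a standard error of 0.42, adjusted p = 1.00).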

How the data were processed

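The 4 libraries, 2 per gate of sorted PC3 cells, were read from both ends at 100 bp. For quality control and trimming the authors used FastQC, MultiQC and Trim Galore, and abundances came from Salmon (transcripts) by way of tximport (genes). The deposited values are TPM per gene, and each library adds up to 1000000. The submitters' processing notes name GRCh38 without tool versions, Salmon options, strandedness or annotation release, all not given in the sources used here. The authors tested with DESeq2. Gene IDs were matched to GENCODE 29 (57844 matched, 119 did not).

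A gene entered the fit if 2 or more libraries reached 1 TPM. The fit used limma 3.58.1 (R 4.3.3) on log2(TPM + 1), a scale that understates changes of genes with low TPM, with the gate as the only term, a trend in the prior variance and Benjamini-Hochberg adjustment over 17642 genes. The fit was also run on simulated data drawn from its own model, with independent noise per library and no difference between replicate numbers. That run does not show how the fit handles such a difference. Tables used Python 3.11.15 and pandas 2.3.3. Alternatives were another pseudocount (0.1), no filter, relative log expression and upper-quartile factors, a robust prior, a replicate block and leaving out each library. The named genes are the 10 genes, the other EGF-like ligands, and in each list the 3 most abundant other genes and the largest log2 fold change in each direction at a mean of at least 5 TPM, of which some are described. The 10 genes, the lists and the tests were chosen with earlier results of these data known. A planned search of the ligand and receptor proteins was not run. As TPM keeps no depth, replicate spread is the only measure of precision.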

Additional observations from a re-analysis of the deposited data

How the results depend on the processing

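With every alternative run, 0 of the 10 genes passed in either direction. Over all genes 0 passed as higher and 0 as lower, except in limma with the replicate block over protein-coding genes, with 71 higher and 93 lower among 12826, a fit that an earlier analysis of these data chose after seeing values. Deviations of the replicate 1 libraries from their gate means correlated between the gates (r = 0.344 across 17642 genes, which are not independent replicates). With 2 libraries per gate, the replicate 2 deviations are the same with the opposite sign and add no further value. The correlation describes a difference that the gates share between the replicate numbers. It cannot show that the numbers mark the sorted pairs. In that fit with the replicate block, AREG (−0.38 ± 0.05 as standard error, adjusted p = 0.0333 in limma) and EGFR (−0.32 ± 0.08, adjusted p = 0.0745) had an adjusted p under 0.1 but stayed under 1.5-fold. In the same fit 3174 of the 12826 genes had an unadjusted p under 0.05 in limma, as had 3 of the 8 tested genes of the 10. The 71 and 93 also had to reach 1.5-fold. The share of all genes with an adjusted p under 0.1 at any fold change is not given here. When the block was fitted to all genes, limma gave an adjusted p of 0.235 for AREG and 0.253 for EGFR.

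AREG stayed below 0 in all fits, −0.58 to −0.18 with 1 library left out, as did EGFR (−0.51 to −0.14). With 1 library left out the ranges crossed 0 for ERBB2 (−0.0918 to 0.0297), ERBB3 (−0.20 to 0.12), EREG (−0.53 to 0.13), HBEGF (−0.37 to 0.84), TGFA (−0.20 to 0.22) and ERRFI1 (−0.48 to 0.64). For HBEGF the value was −0.25 without SORE6+ replicate 1 and 0.72 without SORE6+ replicate 2, 0.84 without SORE6- replicate 1 and −0.37 without SORE6- replicate 2. These fits have no block, so the difference between replicate numbers enters them. With relative log expression factors ERBB2 was at 0.0290 and ERBB3 at 0.0206, and with upper-quartile factors at 0.0136 and 0.00517. These factors moved the median of all genes from −0.05 to −0.000769 and −0.01. Counting genes by replicate number with such factors was outside the plan and was done with the results known. Of the 8 tested genes, 2 were higher in both replicate numbers with relative log expression factors, against 1 without factors. The count of lower genes stayed at 3. Of all genes tested, 32.4% were higher and 32.2% lower in both with relative log expression factors, against 23.2% and 42.3% without factors.

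Under the relative log expression and then the upper-quartile factors, list medians were 0.0206 and 0.00517 for receptors (−0.04 without factors, so the sign turned), 0.0726 and 0.0572 for ligands, 0.178 and 0.163 for sheddases, 0.0761 and 0.0613 for inhibitors, 0.0776 and 0.0627 for adaptors, 0.0686 and 0.0529 for partners and 0.00690 and −0.00831 for early response genes. Without the filter, which lets ERBB4 in, the receptor median was −0.17. With 1 library left out they ranged from −0.20 to −0.0458 for receptors, −0.26 to 0.22 for ligands, −0.10 to 0.22 for sheddases, −0.15 to 0.10 for inhibitors, −0.12 to 0.12 for adaptors, −0.11 to 0.23 for partners and −0.39 to 0.28 for early response genes. The count of pairs was 8, 5 and 4 at minimums of 0.5, 5 and 10 TPM.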
